A study of Mus musculus with 10 samples.

Results

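The Dlk1-Dio3 domain is an imprinted stretch of mouse chromosome 12 that holds 3 long noncoding RNA genes, Meg3, Rian and Mirg, and 3 protein-coding genes, Dlk1, Rtl1 and Dio3. These 6 genes were taken by symbol from the 52636 Ensembl gene identifiers of the count tables, and each matched 1 identifier. They were singled out with the difference between CBE-KO and WT in view, so that difference is described for them without a test. RNA sequencing had been done on E14 cells, a mouse embryonic stem cell line, with 2 libraries of unedited cells (WT) and 2 of cells from which a site bound by CTCF, a protein that shapes chromatin contacts, had been removed (CBE-KO). All 4 cultures had received retinoic acid at a dose read from the labels as 2 µM for 24 h, after removal of LIF and of the MEK and GSK3 inhibitors that hold such cells in self-renewal. The study asked what the element does for contacts between nearby enhancers and the HoxA genes during early differentiation. The imprinted domain described here is on another chromosome than HoxA. The labels describe culture on gelatin and name no feeder cells. Whether the CBE-KO cells were 1 clone or several is not given in the sources used here.

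Imprinted genes are read from only 1 parental chromosome. In this domain a control region that carries DNA methylation on the paternal chromosome keeps the noncoding RNAs silent there, so that Meg3, Rian and Mirg are normally made from the maternal chromosome and Dlk1, Rtl1 and Dio3 mainly from the paternal one. The noncoding RNAs run in the same direction and carry a large group of microRNAs and small nucleolar RNAs within them. Embryonic stem cells usually express Meg3, and loss of its expression is a known epigenetic fault of some mouse pluripotent stem cell lines.

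On the GRCm38 assembly (mm10), the RefSeq table places Dlk1 at chr12:109452485-109463336, Meg3 at chr12:109540996-109571729, Rtl1 at chr12:109564900-109604418, Rian at chr12:109603945-109661716, Mirg at chr12:109734981-109749458 and Dio3 at chr12:110279230-110281097. Between Dlk1 and Dio3 the table lists 61 microRNA hairpin genes, and all 61 matched an identifier in the count tables. All 61 also matched a mature sequence in RefSeq, with 114 entries for mature sequences in all. Those of the 4 hairpins with the most counts in the CBE-KO libraries, Mir329, Mir494, Mir654 and Mir453, are printed 5′ to 3′ from RefSeq (GRCm38.p6), together with 2 others that share a seed with them. All lie on the plus strand, and the capitals mark the seed, bases 2 to 8, which pairs with target RNAs.
mmu-miR-329-5p: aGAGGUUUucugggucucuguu
mmu-miR-329-3p: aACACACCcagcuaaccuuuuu
mmu-miR-494-5p: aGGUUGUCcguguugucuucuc
mmu-miR-494-3p: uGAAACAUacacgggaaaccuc
mmu-miR-654-5p: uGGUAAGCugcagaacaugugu
mmu-miR-654-3p: uAUGUCUGcugaccaucaccuu
mmu-miR-453: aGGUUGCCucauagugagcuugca
mmu-miR-410-5p: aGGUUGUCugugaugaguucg
mmu-miR-496a-5p: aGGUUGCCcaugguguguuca
The seed of miR-494-5p is also that of miR-410-5p, and the seed of miR-453 is also that of miR-496a-5p. Most mature sequences of the domain differ in their seeds: the 114 entries carry 104 distinct seeds, and 9 seeds are shared by differently named sequences. The sequence miR-3070-5p, listed for both Mir3070a and Mir3070b, was counted once in finding shared seeds.

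The first of 2 annotated starts of Meg3 and the annotated start of Mirg are shown because both RNAs were higher in CBE-KO. Each window spans 300 bases on the plus strand, from RefSeq (GRCm38.p6), with each CG dinucleotide, the site of DNA methylation, in capitals.
Meg3, chr12:109540746-109541045: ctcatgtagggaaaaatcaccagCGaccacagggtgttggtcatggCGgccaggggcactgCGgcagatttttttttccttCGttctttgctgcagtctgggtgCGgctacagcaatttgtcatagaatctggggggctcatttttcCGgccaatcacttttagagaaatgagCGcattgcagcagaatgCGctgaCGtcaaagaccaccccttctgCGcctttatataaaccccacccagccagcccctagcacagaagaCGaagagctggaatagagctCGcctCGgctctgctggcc
Mirg, chr12:109734731-109735030: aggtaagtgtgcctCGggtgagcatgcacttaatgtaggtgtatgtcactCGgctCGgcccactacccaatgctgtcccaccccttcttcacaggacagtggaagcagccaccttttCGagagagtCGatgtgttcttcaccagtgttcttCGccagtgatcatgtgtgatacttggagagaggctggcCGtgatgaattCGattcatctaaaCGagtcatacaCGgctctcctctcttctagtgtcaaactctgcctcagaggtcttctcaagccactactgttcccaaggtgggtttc
This first Meg3 window held 13 CG dinucleotides and the Mirg window 10, against a median of 7 over 32851 such windows in the genome. The Meg3 window also held 1 copy of TGACGTCA, the palindrome known as the cyclic AMP response element, which occurred in 1.79% of all windows. The core letters CCCTC of the CTCF motif, searched on both strands, were found in neither of these 2 windows and in 66.0% of all windows. The letters AGGTCA, the half-site bound by retinoic acid receptors, were likewise in neither on either strand, and in 16.3% of all windows. At the starts of other members, Dio3 had 25 CG dinucleotides and 3 copies of CCCTC, Dlk1 had 9 and 2, and the annotated start of Rian had 0 and 2. The window at the second Meg3 start, chr12:109545148-109545447, held 1 CG dinucleotide, 1 copy of CCCTC and 1 of AGGTCA. These matches describe letters only, and no binding or methylation was measured.

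The library totals were 15257213 and 14201780 counts for WT against 15632960 and 14108038 for CBE-KO, so 3 counts, the limit that a count of 0 allows, stood at 0.184 to 0.218 CPM (counts scaled to library total times the TMM factor, edgeR's correction for library composition). Of 16005 genes tested with edgeR's quasi-likelihood test, 43.1% differed at an adjusted p under 0.05, so a call is common in this comparison. The stem cell markers Pou5f1 (813 to 1083 CPM), Sox2 (262 to 347 CPM) and Nanog (804 to 906 CPM) were abundant in all 4 libraries. The groups also differed in Y-linked transcripts: the counts of Ddx3y, Eif2s3y and Uty together were 11 and 10 for WT against 2101 and 1868 for CBE-KO. Effects of the missing element and of any other difference between the 2 cell populations cannot be told apart with these libraries.

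The noncoding RNAs of the domain were low in WT and higher in both CBE-KO libraries, while Dlk1 and Rtl1 had no counts in any library. Mirg (ENSMUSG00000097391), which hosts microRNAs, had 95 and 88 counts in WT against 357 and 320 in CBE-KO. The 2 libraries of each group lay close together and the groups did not overlap. After scaling with edgeR's TMM method, Mirg went from 6.44 ± 0.0738 (WT) to 22.0 ± 0.0040 CPM (CBE-KO; SD, n = 2 each), which is a log2 fold change of 1.77 ± 0.13 (SE). These SDs are smaller than counting error alone would give at such counts, so the closeness of the libraries does not measure precision. Over all 16005 genes the median log2 fold change was 0.01, and 2.18% of genes had a value at or above that of Mirg. That share is a description only, because Mirg was chosen on this comparison.

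Meg3 (ENSMUSG00000021268), a noncoding RNA known to bind chromatin regulators and the usual readout of this imprint, had 6 and 11 counts in WT against 18 and 28 in CBE-KO. Both CBE-KO libraries were above both WT libraries, and within each group replicate 2 was well above replicate 1. The means were 0.604 ± 0.275 CPM (WT) against 1.51 ± 0.575 CPM (CBE-KO; SD, n = 2 each), with a log2 fold change of 1.31 ± 0.47 (SE). Its size depended on single libraries: it was 0.87 without CBE-KO replicate 2, 0.90 without WT replicate 1 and 1.85 without WT replicate 2. Meg3 reached the low-count filter of 0.679 CPM in both CBE-KO libraries and in 1 WT library.

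Rian (ENSMUSG00000097451), which hosts small nucleolar RNAs, had 2 and 2 counts in WT against 8 and 8 in CBE-KO, too few to enter the fit. The ratio of the summed, scaled counts was 3.68, with an exact (Clopper-Pearson) 95% interval of 1.19 to 15.1 that covers counting error only. The same ratio was 3.41 (2.89 to 4.03) for Mirg and 2.49 (1.40 to 4.64) for Meg3, so the intervals of all 3 RNAs overlap. Together the 3 had 103 and 101 counts in WT against 383 and 356 in CBE-KO. Mirg made up 92.2% and 87.1% of that sum in WT and 93.2% and 89.9% in CBE-KO, so its share was similar in both groups. Levels of different RNAs cannot be ranked from these counts, because exon lengths were not used here.

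Of the coding members only Dio3 had counts, so no change could be measured for Dlk1 and Rtl1. Dlk1 (ENSMUSG00000040856), a transmembrane ligand-like protein that acts on Notch signalling and holds back fat cell differentiation, was at 0 in all 4 libraries, which allows up to 0.184 to 0.218 CPM. Rtl1 (ENSMUSG00000085925), a gene derived from the Gag and Pol parts of a retrotransposon and needed in the placenta, was at 0 as well, with the same limits. Rtl1 is transcribed against a microRNA-bearing RNA on the other strand, and the sources used here do not say whether strand was used in counting. Dio3 (ENSMUSG00000075707), the deiodinase that inactivates thyroid hormone, had 18 and 39 counts in WT against 33 and 47 in CBE-KO, and the groups overlapped. Its means were 2.03 ± 1.13 CPM (WT) against 2.63 ± 0.845 CPM (CBE-KO; SD, n = 2 each), with a log2 fold change of 0.37 ± 0.36 (SE). Without WT replicate 1 that value was -0.12, and without WT replicate 2 it was 1.07, so its direction rests on single libraries. In all, 3 of the 6 members, all noncoding, had both CBE-KO libraries above both WT libraries, a pattern seen in 36.4% of the tested genes, and nothing is read from that count because the members were chosen on this comparison.

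**Figure D1:**
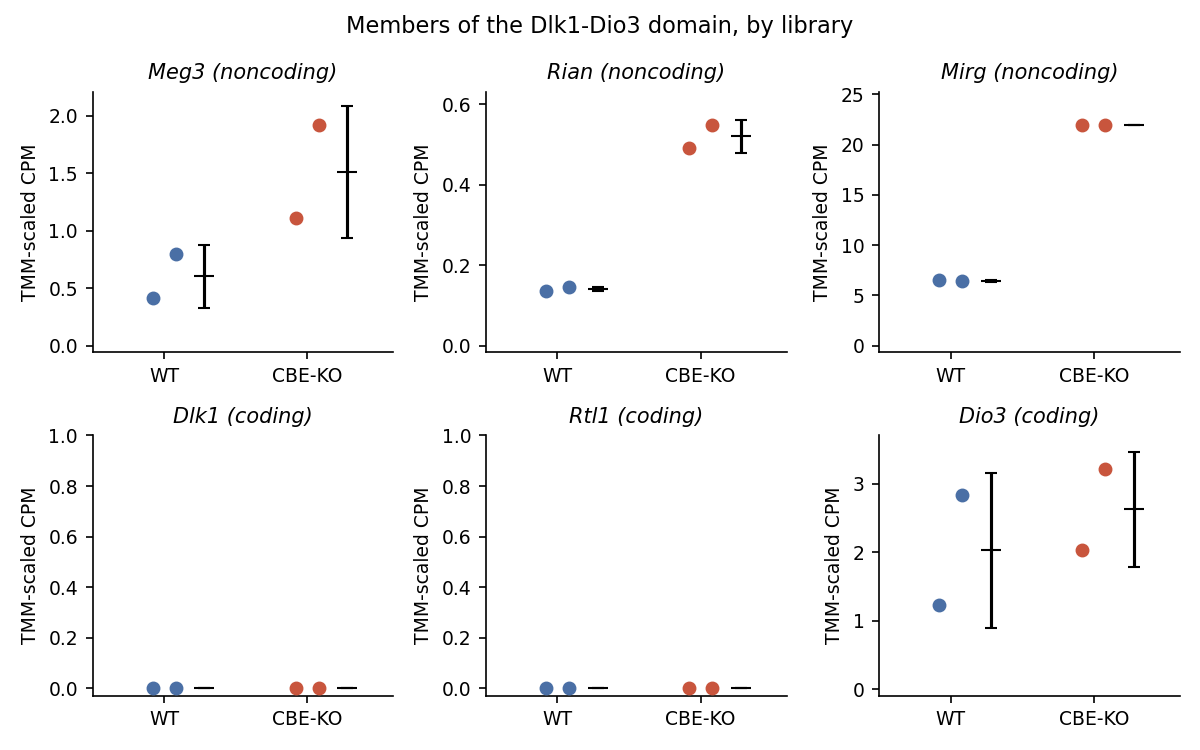
TMM-scaled CPM of the 6 members in each library, with blue points for the 2 WT libraries, red points for the 2 CBE-KO libraries, and a black dash with bars for the mean and SD of each group; each panel has its own vertical scale. Mirg separates the groups most clearly, Meg3 and Rian are low but higher in CBE-KO, Dio3 overlaps, and Dlk1 and Rtl1 are at 0 throughout.

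The microRNA hairpins gave a further reading of the same stretch, made of few counts. Of the 61 hairpin genes, 15 had a count in any library. Summed over the 38 hairpins from Mir379 to Mir410, the block that ends inside Mirg, the counts were 0 and 1 for WT against 22 and 20 for CBE-KO. The ratio of the scaled sums was 38.7, with an exact (Clopper-Pearson) 95% interval of 6.57 to 1564 for counting error, so its size is poorly known. Over all 61 hairpins the WT counts summed to 2 and the CBE-KO counts to 43, a ratio of 19.8 (5.16 to 169). On the log2 scale the ratio for the 38 was 5.27, and 4.23 without WT replicate 1, while without WT replicate 2 the WT sum was 0 and no ratio could be formed. In CBE-KO 14 of these 38 hairpins had a count, and in WT 1 had. Mir494 had 0 and 1 counts in WT against 1 and 5 in CBE-KO, Mir654 had 0 and 0 against 2 and 3, and both Mir329 and Mir453 had 0 in WT and a total of 4 in CBE-KO.

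No single hairpin carried the difference: 8 had counts in both CBE-KO libraries, among them Mir300, Mir487b, Mir541 and Mir667 with 2 or 3 counts each in total. Mir411, Mir679, Mir1193, Mir376c, Mir543 and Mir544 had between 1 and 3 counts in a single CBE-KO library and 0 in WT. Mir3072, beyond Mir410, had 1 count in WT and 1 in CBE-KO. The 21 hairpins before Mir379, within and around Meg3, Rtl1 and Rian, had no count in any library, nor had the 13 matched small nucleolar RNA genes. Of the 15 hairpins with a count in CBE-KO, 12 lay before the annotated start of Mirg and 3 inside it. Whether such counts come from mature microRNAs or from pieces of longer RNA was not tested, and they are not read here as microRNA levels. How reads that overlap both a hairpin and its host gene were assigned is not given in the sources used here.

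**Figure D2:**
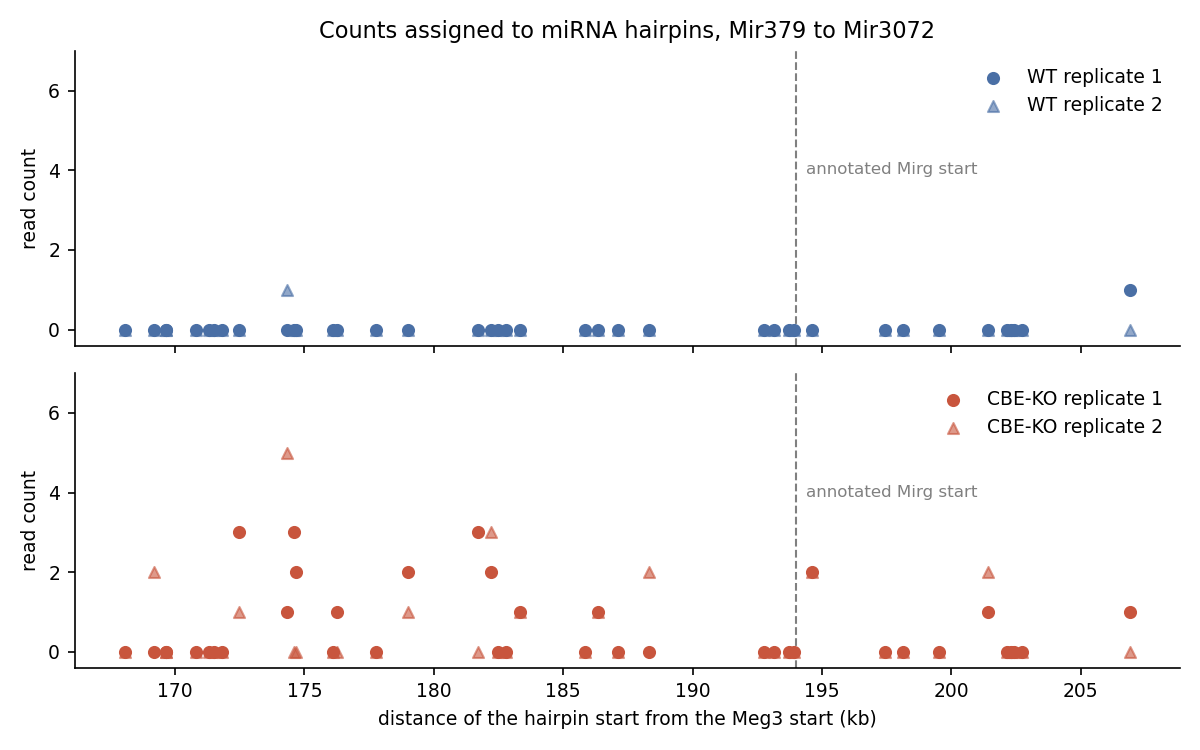
Read counts assigned to each microRNA hairpin from Mir379 to Mir3072, by distance of the hairpin from the Meg3 start in kb, with WT libraries above (blue) and CBE-KO libraries below (red); circles are replicate 1, triangles replicate 2, the dashed line is the annotated Mirg start, and symbols overlap where replicates have equal counts. The WT libraries are at 0 except for 1 count at each of 2 hairpins, and the CBE-KO libraries have up to 5 counts at hairpins on both sides of the Mirg start.

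Other transcripts between Dlk1 and Dio3 were few. Dio3os, antisense to Dio3, had 0 and 0 counts in WT against 3 and 4 in CBE-KO, at or just over the floor, so no fold is given. The pseudogene Gm3379 had 22 and 27 counts in WT against 25 and 19 in CBE-KO, with overlapping groups, and as a copy of another gene its reads may not be its own. Gm34667 had 1 count in 1 WT library. Of 97 other genes that the RefSeq table lists in the domain, 84 matched an identifier in the count tables and 18 of these had any count. The noncoding RNA B830012L14Rik (ENSMUSG00000098202), which is known to belong to this domain but is not in the RefSeq table used, was named after its values were seen. It had 1 and 4 counts in WT against 16 and 11 in CBE-KO, a ratio of 4.97 (1.89 to 16.5) for counting error. On the log2 scale that ratio was 2.31, and it was 1.59 without WT replicate 1 and 3.67 without WT replicate 2.

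Genes on either side of the domain showed no common direction. Of 30 flanking genes, 29 were tested, and 14 (48.3%) passed edgeR's test at an adjusted p under 0.05, near the 43.1% of all genes. Of these, 5 were higher (background 21.6%) and 9 lower (background 21.5%), with a median log2 fold change of 0.04. With library totals in place of TMM scaling the split was 7 and 7, and that of all genes moved from 3461 higher and 3434 lower to 4770 and 2352. On the Dlk1 side 1 gene rose and 5 fell, and on the Dio3 side 4 rose and 4 fell.

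Begain, the nearest tested gene before Dlk1 and coding for a synaptic protein, had 44 and 48 counts in WT against 53 and 50 in CBE-KO, giving a fitted log2 fold change of 0.04 ± 0.24 (SE) and an adjusted p in edgeR of 0.905 whose sign turned to -0.061 without WT replicate 1. Wdr25 fell by 0.46 ± 0.14 (SE; edgeR adjusted p = 0.0126), a call lost in DESeq2 (adjusted p = 0.0644), without WT replicate 2 (0.0687) and without CBE-KO replicate 1 (0.0945). Wars, the tryptophanyl-tRNA synthetase, fell from 268 ± 2.54 to 161 ± 2.46 CPM (SD, n = 2 each), with a log2 fold change of -0.74 ± 0.05 (SE) and an adjusted p in edgeR of 1.89e-09. Beyond Dio3, Ppp2r5c, a regulatory subunit of protein phosphatase 2A, rose by 0.22 (edgeR adjusted p = 0.00169) and Dync1h1, the heavy chain of the dynein motor, by 0.27 (edgeR adjusted p = 0.000134). Hsp90aa1, a chaperone gene beside them, fell by 0.41 on the log2 scale (edgeR adjusted p = 3.35e-07).

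Further out, Evl, an actin regulator, rose from 15.5 ± 1.51 to 35.4 ± 0.710 CPM (SD, n = 2 each), with a log2 fold change of 1.19 ± 0.10 (SE) and an adjusted p in edgeR of 3.41e-08. Amn, which encodes a part of the cubilin receptor of the visceral endoderm, had a log2 fold change of -1.15 ± 0.22 (SE) and an adjusted p in edgeR of 0.000332. The tested flanking genes thus ranged from -1.15 to 1.19, and Mirg, at 1.77, was above each of them. Nothing is read from that place, because the members were chosen on this comparison. Meg3, at 1.31 ± 0.47, was within 1 SE of Evl.

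**Figure D3:**
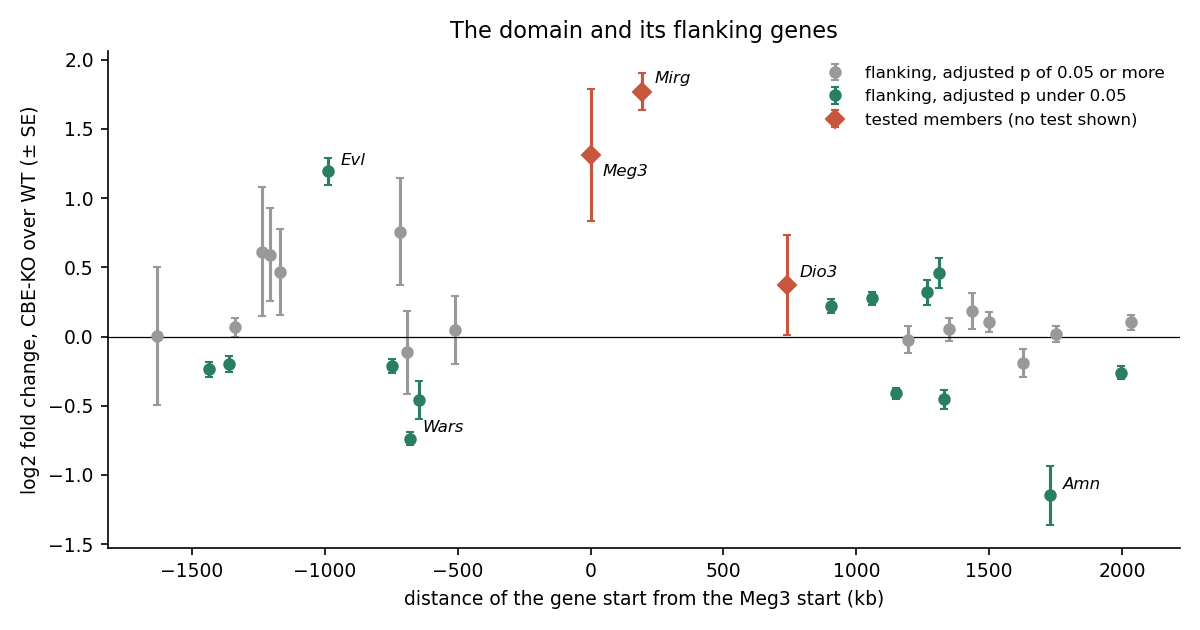
Log2 fold change of CBE-KO over WT with its SE for the 29 tested flanking genes (grey and green circles) and the 3 members in the fit (red diamonds), by distance of the gene start from the Meg3 start in kb. Rises and falls lie on both sides. Mirg has the highest value plotted, but the members were chosen on this comparison.

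Genes known to act on DNA methylation, imprints or chromatin were compared next. Of 21 such genes, 20 were tested and 11 (55.0%) passed, against 43.1% of all tested genes. Of the 11, 1 was higher (background 21.6%) and 10 were lower (background 21.5%). The median log2 fold change of the list was -0.16, against 0.01 for all genes. With library totals 2 were higher and 9 lower. The largest falls were those of Dnmt3l and of the enzymes that set new DNA methylation. Dnmt3l, their cofactor without catalytic activity, had 7709 and 7349 counts in WT against 2686 and 2310 in CBE-KO, a fall from 530 ± 4.69 to 162 ± 4.76 CPM (SD, n = 2 each) and a log2 fold change of -1.71 ± 0.05 (SE) and an adjusted p in edgeR of 3.85e-14. Dnmt3b fell from 188 ± 4.25 to 86.2 ± 0.551 CPM (log2 fold change -1.13, edgeR adjusted p = 1.74e-11), and Dnmt3a from 494 ± 18.2 to 334 ± 0.407 CPM (-0.57, edgeR adjusted p = 4.11e-08).

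Aff3, an elongation-complex protein known to bind the control region of this domain, was the gene of the list that rose. It had 22 and 37 counts in WT against 88 and 67 in CBE-KO, giving a fitted log2 fold change of 1.26 ± 0.27 (SE) and an adjusted p in edgeR of 0.00119. Dnmt1, which copies methylation at replication, was 418 ± 1.46 CPM (WT) against 387 ± 3.95 CPM (CBE-KO; SD, n = 2 each), with a log2 fold change of -0.11 that did not pass (edgeR adjusted p = 0.0563). Zfp57, which guards methylated imprints, was 688 ± 16.3 and 650 ± 1.16 CPM and did not pass either (edgeR adjusted p = 0.156). Its partner Trim28 fell by 0.44 on the log2 scale (edgeR adjusted p = 1.82e-07). Dppa3, which shields imprints from demethylation and is known to keep Meg3 active in reprogrammed cells, had 10 and 8 counts in WT against 6 and 6 in CBE-KO and was not tested. Ctcf had a log2 fold change of -0.05 ± 0.05 (SE) and an adjusted p in edgeR of 0.472. Whether any of these changes bears on Meg3, Rian or Mirg was not tested.

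**Figure D4:**
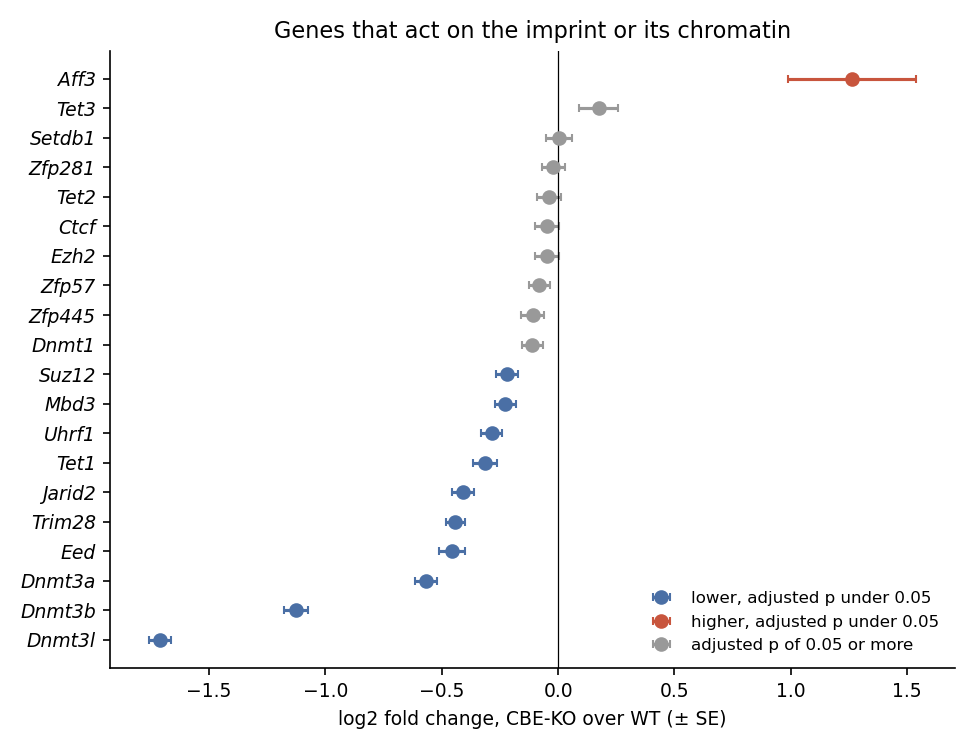
Log2 fold change of CBE-KO over WT with its SE for the 20 tested genes that act on the imprint or its chromatin, coloured by whether they passed edgeR's test. Dnmt3l, Dnmt3b and Dnmt3a have the lowest values, and Aff3 is the gene that passed as higher.

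Genes around the coding members were compared by function. Dlk1 acts on the Notch pathway, and 12 of 17 Notch genes were tested. Of the 12, 7 (58.3%) passed, against 43.1% of all tested genes. Of the 7, 5 were higher (background 21.6%) and 2 lower (background 21.5%). The median log2 fold change of the list was 0.17. Notch4, a receptor, fell from 33.8 ± 1.44 to 19.1 ± 0.739 CPM (SD, n = 2 each; log2 fold change -0.82, edgeR adjusted p = 1.34e-06), and Rbpj, the DNA-binding partner of active Notch, from 432 ± 18.3 to 260 ± 3.21 CPM (-0.73, edgeR adjusted p = 2.55e-09). The ligand gene Jag2 rose by 0.44 on the log2 scale (edgeR adjusted p = 0.000213). Jag1 rose by 0.68 (edgeR adjusted p = 0.0396), a call lost in DESeq2 (adjusted p = 0.182), without WT replicate 1 (0.0844) and without CBE-KO replicate 1 (0.555). Dlk2, the relative of Dlk1, had 6 and 10 counts in WT against 4 and 8 in CBE-KO and was not tested.

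Dio3 acts on thyroid hormone, and of 15 genes of that pathway 12 were tested. Of the 12, 5 (41.7%) passed, near the 43.1% of all tested genes. Of the 5, 2 were higher (background 21.6%) and 3 lower (background 21.5%). The median log2 fold change of the list was 0.03. With library totals 4 were higher and 3 lower. DESeq2 called 2 genes of the list, and edgeR also called 2 without WT replicate 2 and 2 without CBE-KO replicate 1. Slco1c1, a thyroid hormone transporter, fell by 1.55 (edgeR adjusted p = 0.0105), Rxrg, a partner receptor, by 1.29 (0.0134), and Thra, a hormone receptor, rose by 0.37 (0.0305). None of these 3 passed in DESeq2 (adjusted p = 0.0971, 0.109 and 0.177), without WT replicate 2 (0.105, 0.109 and 0.139) or without CBE-KO replicate 1 (0.105, 0.0848 and 0.0919), and Rxrg and Thra did not without CBE-KO replicate 2 (0.0668 and 0.0700). Slco1c1 reached the low-count filter of 0.679 CPM only in WT, so its entry into the test depended on the difference itself. The other deiodinases, Dio1 and Dio2, had at most 2 counts in any library.

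Rtl1 belongs to genes tamed from retrotransposons, and of 15 such genes 12 were tested. Of the 12, 4 (33.3%) passed, against 43.1% of all tested genes. Of the 4, 3 were higher (background 21.6%) and 1 lower (background 21.5%). The median log2 fold change of the list was 0.21. Peg10, a paternally expressed placental gene, rose from 266 ± 11.6 to 309 ± 0.544 CPM (SD, n = 2 each; log2 fold change 0.22, edgeR adjusted p = 0.00148). The other 3 calls rested on few counts, and these genes reached the low-count filter of 0.679 CPM in 1 group only. As that was the group where they were higher, their entry into the test depended on the difference itself. Rtl8c had 3 and 4 counts in WT against 16 and 15 in CBE-KO (log2 fold change 1.99, edgeR adjusted p = 0.00939), and Pnma3 had 4 and 8 against 18 and 25 (1.71, 0.0114). Pnma1 had 19 and 16 against 8 and 6 (-1.42, 0.0222). None of these 3 passed in DESeq2 (adjusted p = 0.102, 0.0911 and 0.163) or without WT replicate 1 (0.106, 0.121 and 0.160). Without CBE-KO replicate 1 or 2, Rtl8c had adjusted p = 0.0595 and 0.0635 and Pnma1 0.102 and 0.145, Pnma3 had 0.150 without CBE-KO replicate 2, and Pnma1 had 0.0865 without WT replicate 2. In DESeq2 the list's count was accordingly 1.

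Imprinted genes of other loci were counted by the parental chromosome they are usually read from, to set beside Meg3, Rian and Mirg. Of 16 maternally expressed genes, 12 were tested and 8 (66.7%) passed, against 43.1% of all tested genes. Of the 8, 2 were higher (background 21.6%) and 6 lower (background 21.5%). The median log2 fold change of the list was -0.41, and with library totals 2 were higher and 4 lower. The noncoding RNAs of the Dlk1-Dio3 domain, also maternally expressed, were higher, but their direction was known when they were chosen and the contrast was not tested. Phlda2, which limits placental growth, fell from 73.8 ± 7.85 to 11.3 ± 0.456 CPM (SD, n = 2 each; log2 fold change -2.71, edgeR adjusted p = 6.21e-13), and Cdkn1c, a cell cycle inhibitor, from 39.9 ± 2.73 to 13.5 ± 0.564 CPM (-1.56, edgeR adjusted p = 1.05e-09). Of 25 paternally expressed genes, 23 were tested and 18 (78.3%) passed, against the same 43.1%. Of the 18, 14 were higher and 4 lower, and the median log2 fold change of the list was 0.51. Peg13, a noncoding RNA, had 6 and 0 counts in WT against 153 and 138 in CBE-KO. It reached the low-count filter of 0.679 CPM only in CBE-KO, so its entry into the test depended on the difference itself. Plagl1, a zinc finger factor, had 42 and 16 counts in WT against 1073 and 917 in CBE-KO (log2 fold change 4.98 ± 0.16, SE; edgeR adjusted p = 2.72e-13). Dlk1 and Rtl1, at 0, could not be placed beside them.

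The genes whose values over the 4 libraries lay nearest to those of Meg3, by Euclidean distance between log2 CPM centred on the WT mean, were Gm16091 (0.21), Zbtb42 (0.22), Lpcat2 (0.26), Alox12b (0.26) and Mboat1 (0.28), out of 15945 genes compared. Zbtb42, the gene among them with the most counts, had 10 and 16 counts in WT against 29 and 39 in CBE-KO. All 5 were of low count, and with 4 libraries such likeness is loose. Mirg stood at a distance of 1.07, rank 753.

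Markers of other cell types that such cultures could hold were also listed. As background, 21.6% of all tested genes passed as higher and 21.5% as lower. Of 10 fibroblast markers, 3 of the 4 tested passed as higher, and Dcn, Lum and Postn were at 0 in all libraries. Their summed level was 15.1 to 16.9 CPM in WT and 22.6 to 25.6 CPM in CBE-KO, with Col1a1 at 3.45 ± 0.247 and 6.35 ± 0.719 CPM (SD, n = 2 each). Of 10 extraembryonic endoderm markers 5 were higher and 1 lower (128 to 133 CPM in WT, 155 to 158 in CBE-KO). Of 8 neural markers 5 were higher and 1 lower (100 to 110 CPM in WT, 89.0 to 89.4 in CBE-KO). The fibroblast marker Col6a1 and the neural markers Pax6 and Zfp521 were among those called higher. They reached the low-count filter (0.679 CPM before TMM scaling) only in CBE-KO, so their entry into the test depended on the difference itself. Of 8 trophoblast markers 2 were higher and 2 lower (109 to 119 CPM in WT, 115 in both CBE-KO libraries), and of 5 muscle markers 1 was tested, and it was lower (16.6 to 18.9 CPM in WT, 11.4 to 13.9 in CBE-KO). The part of such cells in the higher Meg3, Rian and Mirg was not tested, and in bulk RNA more cells making an RNA and more RNA per cell cannot be told apart. Of 10 stem cell markers 2 were higher and 7 lower, with a median of -0.38.

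The size of the Mirg difference hardly moved with the processing. Its log2 fold change lay between 1.75 and 1.87 under every setting tried, with the highest value from library totals alone. That of Meg3 ranged from 0.87 to 1.85 and that of Dio3 from -0.12 to 1.07, both ranges being set by leaving out single libraries.

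**Figure D5:**
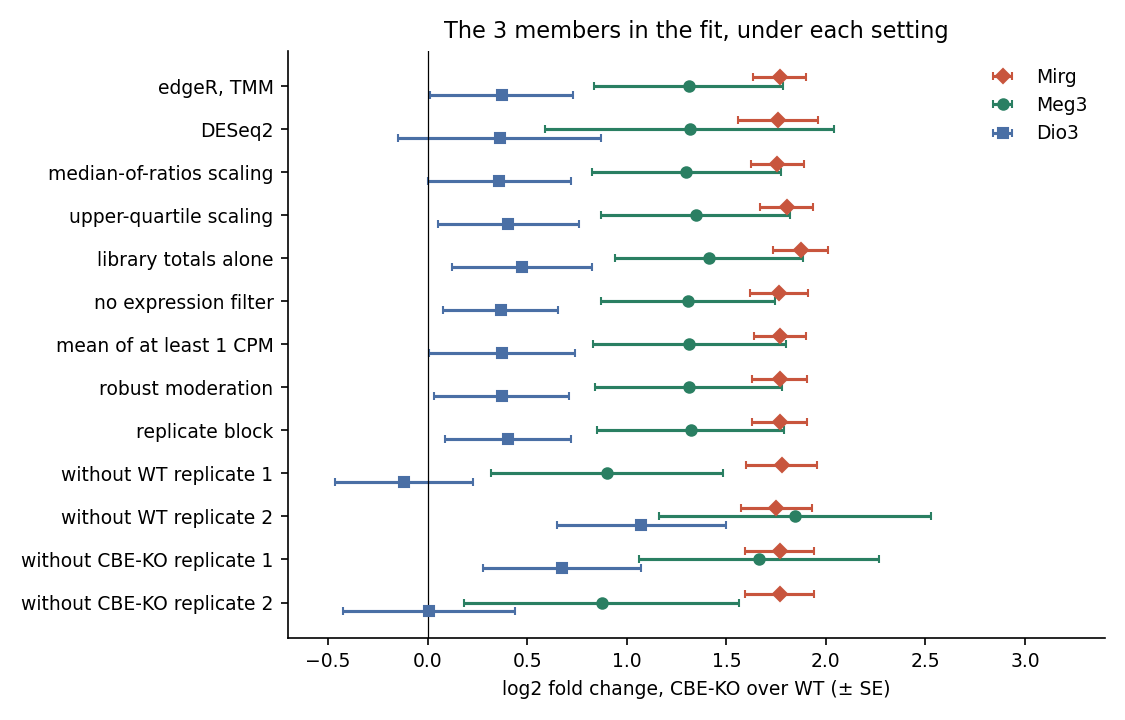
Log2 fold change of CBE-KO over WT with its SE for Mirg (red diamonds), Meg3 (green circles) and Dio3 (blue squares) under each processing setting, listed on the vertical axis. Mirg stays near 1.77 in all rows, and Dio3 lies at -0.12 without WT replicate 1.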

How the data were processed

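The authors deposited 1 table per RNA-seq library with raw read counts per Ensembl gene, whole numbers that were not normalized. The submitters' processing notes name HISAT2 2.1.0, HTSeq 0.9.1, Bowtie2 2.3.1, DESeq2 1.18.1 and mm10, without roles. The annotation release, the use of strand and the treatment of reads matching several genes are not given in the sources used here, so genes that overlap or have near copies are uncertain. Capture-C data (6 samples) were not analysed here.

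Symbols were matched for 52403 of 52636 identifiers. Genes were kept by edgeR's filterByExpr (minimum count 10), scaled by TMM (factors 0.959 and 0.970 in WT, 1.04 and 1.03 in CBE-KO) and tested with edgeR 4.0.16 in R 4.3.3 (glmQLFit, glmQLFTest, two-sided, Benjamini-Hochberg over 16005 genes, threshold 0.05). The filter can admit a gene through 1 group alone, the group where it is higher. CPM are counts over the library total times its TMM factor. The SE is the log2 fold change divided by the square root of F. Counting intervals convert an exact binomial interval. Replicates differed by more than sampling noise (chi-square per degree of freedom 3.74 in WT and 2.94 in CBE-KO). P-values set each difference against a spread estimated from 2 libraries per group and drawn towards that of other genes. In edgeR the prior degrees of freedom were 15.3. In simulated counts for 16005 genes of this comparison, edgeR recovered 142 of 200 genes changed by a log2 fold change of 1, with 7 false calls, and DESeq2 1.42.0 recovered 131, with 3.

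The members and lists were chosen with earlier results of these data known. Named genes were all members, all other domain transcripts with a count, the 3 nearest tested flanking genes on each side and those called with a log2 fold change of 0.5 or more in either direction, the 4 largest called changes of each other list (2 for other imprinted genes), the 5 genes nearest to Meg3, and checks; 1 gene that the rule names is not reported here. Further regulators, markers and untested list genes were named after their values were seen. Alternatives were DESeq2, other scalings and filters, robust moderation, a replicate block, stricter thresholds and leaving out each library.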

Additional observations from a re-analysis of the deposited data

How the results depend on the processing

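Mirg, Meg3 and the Rian ratio kept their direction under every alternative run. The log2 fold change of Mirg moved by more than its very small replicate spread to 1.80 with upper-quartile scaling and 1.87 with library totals alone, the latter scaling shifting the median of all genes to 0.11. Leaving out single libraries gave 1.75 to 1.78 for Mirg, 0.87 to 1.85 for Meg3, -0.12 to 1.07 for Dio3, and log2 ratios of 1.80 to 1.96 for Rian and 4.23 to 5.28 for the Mir379 to Mir410 hairpins. The log2 ratio of B830012L14Rik lay between 1.59 and 3.67. Alternatives for it and for the hairpins were chosen after seeing the data, and without WT replicate 2 the hairpins gave no ratio because their WT sum was 0. Begain ranged from -0.061 (without WT replicate 1) to 0.15 (without WT replicate 2). In these fits the lone library of a group is assumed to vary like the other group. The genes past the threshold numbered 6895, 4577 in DESeq2 and 1383 with a log2 fold change of 1 or more in either direction, and the share that was higher was 50.2%, or 67.0% with library totals. With that fold limit the lists kept 2 flanking genes, 3 regulators, 0 Notch genes (7 without the limit), 3 thyroid hormone genes, 3 maternally and 9 paternally expressed genes. At an adjusted p under 0.01, 2 thyroid hormone and 2 Gag-derived genes remained. DESeq2 called 2 thyroid hormone and 1 Gag-derived gene, and a mean of at least 1 CPM left 1 Gag-derived gene, since fewer were tested. Leaving out single libraries gave 2 to 6 thyroid hormone genes and 1 to 3 Gag-derived genes. Same-numbered libraries shared only a number (correlation of their deviations 0.027), and with a replicate block in the design 7027 genes passed, with log2 fold changes of 1.32 for Meg3, 1.77 for Mirg and 0.41 for Dio3. Of 380 comparisons of 32 other named genes with their alternatives, 348 kept their direction and side of the threshold and 31 lost the call. The cause of these changes was not tested except where stated. Depth limits Rian, Meg3, the hairpins and Dio3os, all at a few counts per library.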
